A study of Mus musculus with 15 samples.

Results

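The metallothioneins *Mt1* and *Mt2*, the metal-sensing transcription factor *Mtf1*, the zinc importers *Slc39a14*, *Slc39a1* and *Slc39a10* and the zinc exporter *Slc30a1* were followed through all conditions of a macrophage stimulation experiment. These 7 genes were taken by symbol from a table of 51763 Ensembl genes, and all 7 passed the filter on low counts. Bone marrow-derived macrophages (BMDMs) were grown from wild-type C57BL/6NTac female mice aged 8 to 10 weeks according to the methods of the study, and the cells of 5 mice were pooled before seeding. Cells were stimulated for 24 h with PBS as the control, with 5 µg/mL fully reduced HMGB1 (frHMGB1), with 5 µg/mL disulfide HMGB1 (dsHMGB1), with 1 µg/mL LPS, or with LPS and 20 ng/mL IFNγ (LPS/IFNγ), and RNA was sequenced from 3 samples of each. For LPS/IFNγ, the LPS concentration is 1 µg/mL by the treatment label and 100 ng/mL by the protocol text, so an effect of IFNγ and one of the LPS dose cannot be told apart between LPS/IFNγ and LPS. The frHMGB1 was made in-house in buffers with the reducing agent DTT, whereas dsHMGB1 came from another laboratory and was made without it. Because of the pooling, the replicates are technical, and every SD, SE and p below covers the spread between samples of one pool and not between mice.

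Zinc in a cell is set by proteins that carry it across membranes and proteins that bind it. ZIP proteins (the Slc39a family) move zinc into the cytosol, ZnT proteins (the Slc30a family) move it out of the cytosol into vesicles or out of the cell, and metallothioneins are small cysteine-rich proteins that bind zinc and copper. MTF1 binds DNA when cytosolic zinc is high and activates metallothionein genes and *Slc30a1* through short motifs called metal response elements. In activated macrophages this system is known for withholding zinc from microbes, and *Slc39a14* is known as an importer that rises with inflammatory signals. HMGB1 is a nuclear DNA-binding protein that acts as a danger signal once it is outside the cell. Its disulfide form signals through TLR4, which is also the receptor for LPS.

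The regions upstream of the members known as MTF1 targets are shown to mark matches to the core of metal response elements. *Mt2* (ENSMUSG00000031762, chromosome 8, 94172664 to 94173568) and *Mt1* (ENSMUSG00000031765, chromosome 8, 94179082 to 94180327) lie on the plus strand of GRCm38 with 5513 bases between them. *Slc30a1* (ENSMUSG00000037434, chromosome 1, 191906767 to 191913247) is also on the plus strand. The sequences below are the 250 bases before the RefSeq start site (GRCm38.p6), written 5′ to 3′ on the plus strand. Capitals mark matches to this core, searched as TGCACNC or TGCGCNC on both strands.
Mt1, chr8:94178839-94179088: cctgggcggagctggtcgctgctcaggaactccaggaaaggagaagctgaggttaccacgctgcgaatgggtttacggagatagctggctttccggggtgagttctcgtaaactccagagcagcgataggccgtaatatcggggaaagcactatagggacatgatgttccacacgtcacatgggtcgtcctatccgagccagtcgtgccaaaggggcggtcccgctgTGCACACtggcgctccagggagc
Mt2, chr8:94172368-94172617: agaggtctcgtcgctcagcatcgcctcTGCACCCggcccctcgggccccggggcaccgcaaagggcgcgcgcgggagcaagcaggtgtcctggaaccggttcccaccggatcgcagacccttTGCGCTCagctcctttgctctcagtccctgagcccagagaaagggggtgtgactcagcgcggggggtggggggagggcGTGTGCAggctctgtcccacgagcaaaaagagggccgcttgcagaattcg
Slc30a1, chr1:191906531-191906780: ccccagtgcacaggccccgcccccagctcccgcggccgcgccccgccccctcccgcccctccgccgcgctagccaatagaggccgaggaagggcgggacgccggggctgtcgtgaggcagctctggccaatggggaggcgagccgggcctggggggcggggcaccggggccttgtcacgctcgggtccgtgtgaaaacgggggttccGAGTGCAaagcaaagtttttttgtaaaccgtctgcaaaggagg

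In windows of 300 bases that also took in the first 50 bases from the start site on, *Mt2* held 4 cores, at positions -223, -128, -50 and 5 from the start site. *Mt1* held 3, at -23, 3 and 21, and *Slc30a1* held 2, at -43 and 31. Of 32851 RefSeq windows of the same length, 25.7% held at least 1 core, 7.11% at least 2, 1.97% at least 3 and 0.517% at least 4. The windows of *Mtf1*, *Slc39a1* and *Slc39a10* held 0. A match is a description of letters and not evidence of binding. GENCODE M21 places the start of *Mt1* and of *Slc30a1* a few bases before the RefSeq start and that of *Mt2* after it. It also lists further *Mt1* transcripts that begin at 94179211 and 94179241 and a further *Mt2* transcript that begins at 94172860. The windows and positions above hold for the RefSeq start alone.

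Total counts lay between 40934540 and 80925478 per library, so the members, with 20 counts or more in every library, were measured without zeros. The label of the cells held against its markers, with 8 of 8 macrophage markers detected and a summed level between 14022 and 27696 CPM, a count relative to the total of its library. Of the markers of other cells, the 6 neutrophil markers summed to at most 0.728 CPM with *Ly6g* and *Mpo* at 0, the lymphocyte markers to at most 0.152 CPM with *Cd3e* and *Cd3g* at 0, and the erythroid markers to at most 0.351 CPM with the globins *Hbb-bs* and *Hba-a1* at 0. The 5 fibroblast markers, mainly *Col1a1* and *Col1a2*, reached 111 to 266 CPM and the 3 dendritic markers 0.912 to 14.2 CPM, with the highest dendritic values in LPS/IFNγ; the part of either in the results was not tested. One library stood apart. PBS replicate 3 correlated with the other PBS libraries at Pearson's r of 0.939 and 0.944 on log2 CPM, against at least 0.995 in every other pair of replicates. The chi-square per degree of freedom was 763 and 692 in these pairs. In dsHMGB1 it was 86.6 (replicates 1 and 2), 48.6 (1 and 3) and 22.9 (2 and 3). Within frHMGB1, LPS and LPS/IFNγ it reached at most 10.1. Whether dsHMGB1 replicate 1 shifts with gene length was not tested. The difference of PBS replicate 3 from the other PBS libraries followed gene length. In protein-coding genes with at least 100 normalized counts in PBS, its level was higher by a median of 1.80 on the log2 scale where exons summed to under 1 kb (182 genes), and the median was -0.93 over 8 kb (1902 genes).

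The members followed this shift to different degrees. On the log2 scale, PBS replicate 3 differed from the mean of the other PBS libraries by 2.37 in *Mt1* (1246 bases of exon), 2.30 in *Mt2* (588 bases) and -3.09 in *Slc39a10* (6095 bases). The differences were 0.39 in *Slc39a1* (2364 bases), 0.03 in *Slc30a1* (5244 bases), -0.84 in *Mtf1* (8907 bases) and -0.73 in *Slc39a14* (10550 bases). The difference between PBS replicates 1 and 2 reached at most 0.47, in *Mt2*. *Mt1*, *Mt2* and *Slc39a10* therefore have a PBS mean that one library decides, and each comparison of a member with PBS below is given with and without it. For other genes, the value without it is given where it changed the call of a named comparison or moved its fold change by more than 1.5 times.

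**Figure D1:**
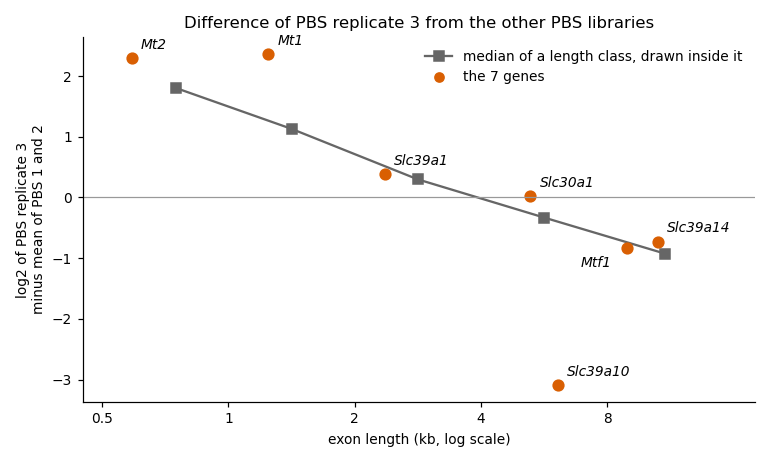
Difference of PBS replicate 3 from the mean of PBS replicates 1 and 2 (log2 of normalized count + 1, y axis) against summed exon length (kb, log x axis) for the 7 genes (orange points) and as the median of protein-coding genes in 5 length classes (grey squares). The class medians fall from 1.80 to -0.93 with length, *Mt1* lies above them at 2.37 and *Slc39a10* far below them at -3.09.

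The clearest responses were those of *Mt2* and *Slc39a14*, which rose in dsHMGB1, LPS and LPS/IFNγ and not in frHMGB1. *Slc39a1* rose in the same 3 conditions by 1.65-fold to 1.90-fold. *Slc30a1*, the exporter of the plasma membrane, rose with dsHMGB1 and fell with LPS. In frHMGB1 0 of 7 members were called higher and 0 lower at an adjusted p under 0.05 in edgeR's quasi-likelihood test. There 1.31% of 16919 genes were called higher and 5.69% lower. At an unadjusted p under 0.05 there were 2, *Slc39a1* and *Slc30a1*, and the share of all genes at that threshold was not computed. DESeq2's Wald test called 1, *Slc30a1*, where it called 2.97% of all genes higher and 7.4% lower. In dsHMGB1 edgeR called 4 members higher and 1 lower, against 23.3% and 24.2% of all genes. In LPS 4 were higher and 1 lower, against 26.7% and 36.2%. In LPS/IFNγ 5 were higher and 0 lower, against 29% and 31.2%, so in these last 3 comparisons a call by itself was common among all genes. The 4 comparisons share the PBS libraries. When PBS replicate 3 was left out, 1 member was called higher and 1 lower in frHMGB1, 4 and 1 in dsHMGB1, 5 and 2 in LPS and 5 and 1 in LPS/IFNγ, while 8.70% and 9.14%, 30.4% and 29.7%, 33.5% and 38.8%, and 33.9% and 35.0% of all genes were. The median log2 fold change of the 7 members was -0.23, 0.66, 0.64 and 0.98 in this order, and that of all genes -0.01, -0.10, -0.21 and -0.12. In bulk RNA, a lower share of cells that express a gene and less RNA per cell cannot be told apart.

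**Figure D2:**
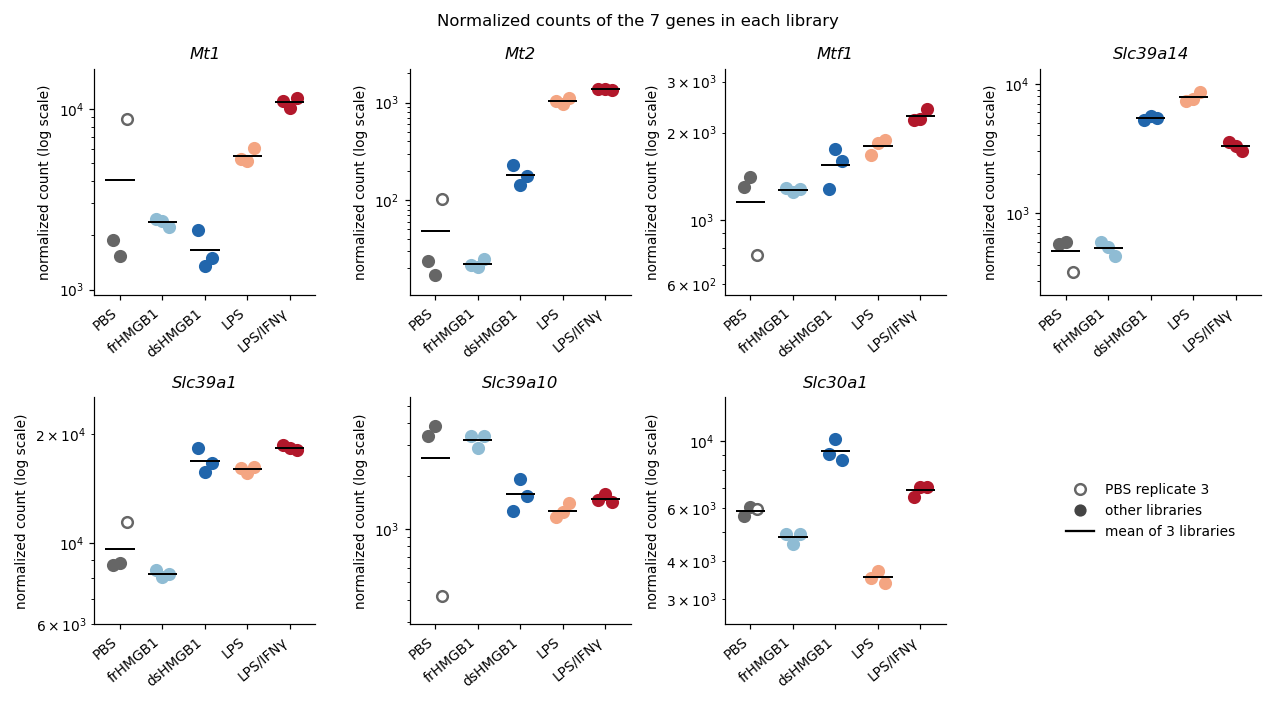
Normalized counts (log y axis) of each of the 7 genes in every library, by condition, with a line at the mean of 3 libraries and an open point for PBS replicate 3. *Mt2* and *Slc39a14* of dsHMGB1, LPS and LPS/IFNγ lie above all PBS and frHMGB1 libraries, and *Slc30a1* is highest in dsHMGB1 and lowest in LPS.

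*Mt1* encodes one of the main zinc-binding metallothioneins. Its normalized count was 1880.1, 1538 and 8783 in the 3 PBS libraries, 2467, 2396 and 2228 in frHMGB1 and 2149, 1342 and 1495 in dsHMGB1. In LPS it was 5277, 5174 and 6090.4, and in LPS/IFNγ 11081.5, 10142 and 11570.5. LPS/IFNγ was the highest group and overlapped no other, whereas PBS replicate 3 was above all libraries of frHMGB1, dsHMGB1 and LPS. With all libraries, *Mt1* was lower in dsHMGB1 than in PBS by a log2 fold change of -1.29 (SE 0.48, adjusted p = 0.0399) although the libraries overlapped. It was higher in LPS/IFNγ by 1.43 (SE 0.48, adjusted p = 0.0163), and not called in LPS (0.44, adjusted p = 0.442) or frHMGB1 (-0.78, adjusted p = 0.486). These calls changed without PBS replicate 3. The log2 fold change of dsHMGB1 was then -0.04 (SE 0.15, adjusted p = 0.669), and *Mt1* was called higher in LPS by 1.68 (adjusted p = 1.77e-08), in LPS/IFNγ by 2.67 (adjusted p = 3.95e-11) and in frHMGB1 by 0.47 (adjusted p = 0.0328). The call in dsHMGB1 was also lost on leaving out any one library of frHMGB1, LPS or LPS/IFNγ (adjusted p between 0.0514 and 0.0533), dsHMGB1 replicate 2 (0.125) or dsHMGB1 replicate 3 (0.110), and the call in LPS/IFNγ without PBS replicate 1 (0.0567). In LPS/IFNγ it was not called either with scaling to library size alone (0.87, adjusted p = 0.0802) or to the upper quartile (1.09, adjusted p = 0.0692). With each fitted alone with PBS, *Mt1* was not called in dsHMGB1 (adjusted p = 0.204) or LPS/IFNγ (adjusted p = 0.12).

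*Mt2* encodes the second ubiquitous metallothionein. In LPS and LPS/IFNγ, but not in dsHMGB1, its fold change against PBS was the largest of the members. Normalized counts were 23.9, 17.03 and 103 in PBS and 21.4, 20.4 and 24.8 in frHMGB1. It was 229, 142 and 176 in dsHMGB1, 1047, 969.9 and 1103 in LPS, and 1381, 1379 and 1349.9 in LPS/IFNγ. Every library of these 3 conditions lay above every PBS and frHMGB1 library, PBS replicate 3 included. Against PBS the log2 fold change was 1.96 (SE 0.47, adjusted p = 0.00205) in dsHMGB1, 4.48 (SE 0.47, adjusted p = 2.20e-06) in LPS and 4.87 (SE 0.47, adjusted p = 9.44e-07) in LPS/IFNγ. This corresponded to 3.89-fold, 22.2-fold and 29.3-fold. The rises were 8.84-fold, 50.6-fold and 66.6-fold without PBS replicate 3, so this library moved the size of the rise by more than 1.5 times and not the call. With dsHMGB1 and PBS fitted alone, the adjusted p of the rise in dsHMGB1 was 0.0695. In frHMGB1 the log2 fold change was -1.07 with all libraries (adjusted p = 0.384) and 0.12 without that library (adjusted p = 0.849). An antisense gene, *Gm45774*, overlaps *Mt2*, and whether the counting used strand is not given in the sources used here.

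The make-up of the metallothionein counts also differed, and this measure was not sensitive to PBS replicate 3. *Mt2* made up 1.26%, 1.09% and 1.16% of the counts of *Mt1* and *Mt2* together in the 3 PBS libraries and 0.859%, 0.846% and 1.10% in frHMGB1. The share was 9.62%, 9.55% and 10.5% in dsHMGB1, 16.6%, 15.8% and 15.3% in LPS, and 11.1%, 11.97% and 10.4% in LPS/IFNγ. Thus the share was highest in LPS, where each library lay above each of the others, although both genes had their highest counts in LPS/IFNγ. The shares of dsHMGB1 and LPS/IFNγ overlapped, with means of 9.89% ± 0.542 and 11.2% ± 0.762 (SD, n = 3). For PBS replicate 3, the exact (Clopper-Pearson) 95% interval was 0.932% to 1.43%, which covers counting error only. Of 10 pairs of conditions, 8 did not overlap, and each of these had a two-sided exact permutation p of 0.1 (0.125 after Benjamini-Hochberg adjustment over the 10), which is the smallest that 3 libraries against 3 allow.

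**Figure D3:**
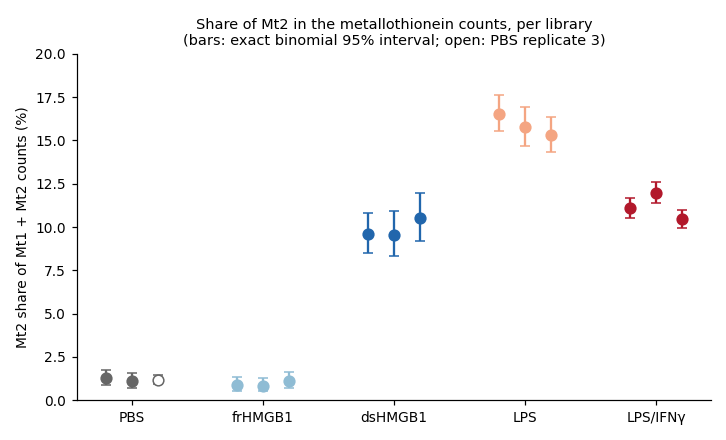
Share of *Mt2* in the summed raw counts of *Mt1* and *Mt2* (%, y axis starting at 0) in each library, with exact binomial 95% intervals as bars and an open point for PBS replicate 3. PBS and frHMGB1 lie between 0.846% and 1.26%, dsHMGB1 and LPS/IFNγ between 9.55% and 11.97%, and LPS between 15.3% and 16.6%.

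Against each other, the stimulations differed in both metallothioneins. *Mt2* was higher in dsHMGB1 than in frHMGB1 by a log2 fold change of 3.03 (SE 0.49, adjusted p = 0.000181) and lower in dsHMGB1 than in LPS by -2.52 (SE 0.46, adjusted p = 0.000724). Against LPS/IFNγ, dsHMGB1 was at -2.91 (adjusted p = 0.000142) in *Mt2* and at -2.72 (adjusted p = 0.000737) in *Mt1*. *Mt1* in dsHMGB1 was also lower than in LPS, by -1.73 (SE 0.48, adjusted p = 0.0177), a call that was lost without dsHMGB1 replicate 2 (adjusted p = 0.0714) or replicate 3 (adjusted p = 0.0661). Between LPS/IFNγ and LPS, neither gene was called (0.99 for *Mt1*, adjusted p = 0.129, and 0.40 for *Mt2*, adjusted p = 0.482). No libraries overlapped in either, but this held for all 7 members in that comparison, and the share of all genes without overlap was not computed. Without PBS replicate 3, which narrows the shared estimate of the spread, both metallothioneins were called there (*Mt1* adjusted p = 4.21e-06, *Mt2* adjusted p = 0.0102), with log2 fold changes of 0.99 and 0.40.

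*Mtf1* (ENSMUSG00000028890, chromosome 4, 124802104 to 124849800), which encodes the zinc sensor, varied far less than the metallothioneins. Its normalized count was 1301, 1401 and 756 in PBS, 1289, 1253 and 1276 in frHMGB1, and 1275, 1762 and 1595 in dsHMGB1. In LPS it was 1677, 1839.7 and 1894, and in LPS/IFNγ 2212, 2220.4 and 2416. LPS/IFNγ was the highest group and overlapped no other. The log2 fold change against PBS was 0.64 (SE 0.20, adjusted p = 0.0250) in LPS and 0.98 (SE 0.20, adjusted p = 0.00116) in LPS/IFNγ, and *Mtf1* was not called in dsHMGB1 (0.42, adjusted p = 0.119) or frHMGB1 (0.14, adjusted p = 0.776). The rises were smaller without PBS replicate 3, with 0.41 (adjusted p = 0.00491) in LPS and 0.75 (adjusted p = 1.09e-05) in LPS/IFNγ. With scaling to library size alone, the value of LPS turned to -0.088 (adjusted p = 0.745) while the median of all genes moved by -0.70, so the direction in LPS rests on the scaling, and the value of LPS/IFNγ was 0.26 and not called (adjusted p = 0.324). The call in LPS was lost without LPS replicate 3 (adjusted p = 0.0506), and *Mtf1* was called in dsHMGB1 without PBS replicate 2 (adjusted p = 0.0356).

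*Slc39a14* (ENSMUSG00000022094, chromosome 14, 70303469 to 70351425, minus strand) encodes ZIP14, an importer of zinc and non-transferrin iron. Normalized counts of 575, 594.05 and 353 were found in PBS and of 594.4, 546 and 464 in frHMGB1. It was 5212, 5589.8 and 5399 in dsHMGB1, 7341, 7616 and 8597 in LPS, and 3537, 3312 and 3041 in LPS/IFNγ. The order was thus LPS over dsHMGB1 over LPS/IFNγ, and none of these groups overlapped another or the PBS and frHMGB1 libraries. Against PBS the rise was 10.6-fold in dsHMGB1 (log2 fold change 3.41, SE 0.18, adjusted p = 8.09e-09) and 15.4-fold in LPS (3.95, SE 0.18, adjusted p = 1.47e-09). In LPS/IFNγ it was 6.47-fold (2.69, SE 0.18, adjusted p = 3.94e-08). Without PBS replicate 3 the rises were 9.22-fold, 13.3-fold and 5.60-fold. *Slc39a14* was the member for which LPS/IFNγ was below LPS (-1.25, SE 0.17, adjusted p = 0.000227) and below dsHMGB1 (dsHMGB1 higher by 0.71, SE 0.17, adjusted p = 0.00621). The difference between dsHMGB1 and LPS was -0.54 (95% interval -0.88 to -0.20) with an adjusted p of 0.0610, and it was called without PBS replicate 3 (-0.53, adjusted p = 2.85e-05) or PBS replicate 2 (adjusted p = 0.0463).

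*Slc39a1* (ENSMUSG00000052310, chromosome 3, 90248172 to 90253612, plus strand) encodes ZIP1, a widely expressed importer of the plasma membrane. Its normalized count was 8718, 8803 and 11481 in PBS, 8446, 8099.9 and 8219 in frHMGB1, and 18367, 15758 and 16609 in dsHMGB1. It was 16102, 15652 and 16205 in LPS and 18632, 18301 and 18105 in LPS/IFNγ. dsHMGB1, LPS and LPS/IFNγ lay above all PBS and frHMGB1 libraries, and dsHMGB1 overlapped both of the others. Against PBS the rises were 1.75-fold (log2 fold change 0.81, SE 0.11, adjusted p = 8.03e-06) in dsHMGB1, 1.65-fold (0.73, adjusted p = 2.70e-05) in LPS and 1.90-fold (0.92, adjusted p = 1.44e-06) in LPS/IFNγ. They were 1.93-fold, 1.81-fold and 2.08-fold without PBS replicate 3, and frHMGB1, at -0.23 with all libraries, was at -0.08 (adjusted p = 0.340). The intervals of the differences of dsHMGB1 from LPS (-0.13 to 0.29) and from LPS/IFNγ (-0.33 to 0.09) held 0. With scaling to library size alone, the rise in LPS was 0.05 (adjusted p = 0.598).

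*Slc39a10* (ENSMUSG00000025986, chromosome 1, 46807544 to 46892852, minus strand) encodes ZIP10, a plasma membrane importer, and its level went the other way. The normalized count was 3380.01, 3826 and 421 in PBS, 3380.2, 2887 and 3359.8 in frHMGB1, and 1268, 1921 and 1546 in dsHMGB1. In LPS it was 1171, 1243 and 1403, and in LPS/IFNγ 1460.4, 1573 and 1422. PBS replicates 1 and 2 and all frHMGB1 libraries were above every library of the other 3 conditions, and PBS replicate 3 was below them all. With all libraries *Slc39a10* was not called in any comparison with PBS, with 0.34 in frHMGB1 (adjusted p = 0.809) and -0.69 in dsHMGB1 (adjusted p = 0.263) as log2 fold changes, and with -0.999 (adjusted p = 0.0832) under LPS and -0.78 (adjusted p = 0.179) under LPS/IFNγ. Without PBS replicate 3 it was called lower by -1.19 in dsHMGB1 (SE 0.14, adjusted p = 1.40e-07), by -1.51 with LPS (adjusted p = 4.54e-09) and by -1.29 with LPS/IFNγ (adjusted p = 2.50e-08). Against frHMGB1, which does not involve the PBS libraries except through the estimate of the spread, LPS was lower with all libraries (frHMGB1 higher by 1.33, SE 0.50, adjusted p = 0.0357), a call that was lost without any one of the frHMGB1 or LPS libraries (adjusted p between 0.0557 and 0.0994). For dsHMGB1 this difference was -1.02 (adjusted p = 0.109) with all libraries and -1.03 (adjusted p = 2.95e-07) without PBS replicate 3.

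*Slc30a1* encodes ZnT1, which exports zinc over the plasma membrane. The normalized count of *Slc30a1* was 5628, 6028 and 5929 in PBS, 4928, 4553 and 4936 in frHMGB1, and 9080.1, 10143 and 8614 in dsHMGB1. It was 3525, 3721 and 3389 in LPS and 6545, 7035 and 7039 in LPS/IFNγ. None of the 5 groups overlapped another, in the order dsHMGB1, LPS/IFNγ, PBS, frHMGB1, LPS, and PBS replicate 3 lay between the other PBS libraries. Against PBS *Slc30a1* rose 1.58-fold in dsHMGB1 (log2 fold change 0.66, SE 0.08, adjusted p = 3.99e-05) and fell in LPS (-0.73, SE 0.08, adjusted p = 4.39e-06), with values of 0.67 and -0.73 when PBS replicate 3 was left out. The neighbours LPS/IFNγ and PBS (0.23, adjusted p = 0.0609) and PBS and frHMGB1 (frHMGB1 at -0.29, adjusted p = 0.101) did not differ past the threshold, although the first was called without PBS replicate 2 (adjusted p = 0.0473) and by DESeq2's Wald test (adjusted p = 0.00664), but not without PBS replicate 3 (0.23, adjusted p = 0.0540), and the second without PBS replicate 3 (-0.28, adjusted p = 0.0127). The value of LPS/IFNγ was -0.087 (adjusted p = 0.381) with upper-quartile scaling and -0.46 with library size alone. With library size alone *Slc30a1* was called lower in LPS/IFNγ (adjusted p = 0.00168), so the direction depends on the scaling. dsHMGB1 was 2.62-fold higher than LPS (log2 fold change 1.39, SE 0.08, adjusted p = 1.54e-07) and 1.35-fold higher than LPS/IFNγ (0.43, SE 0.08, adjusted p = 0.00140), and LPS/IFNγ was 1.94-fold higher than LPS (0.96, SE 0.08, adjusted p = 3.26e-06).

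**Figure D4:**
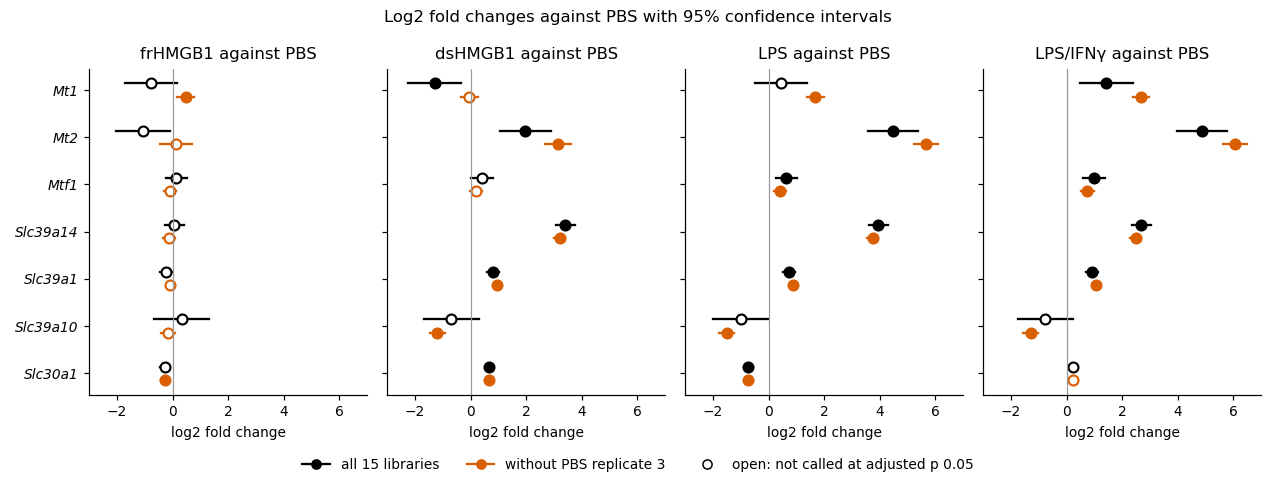
Log2 fold changes against PBS (x axis) with 95% confidence intervals for the 7 genes in the 4 stimulations, with all 15 libraries (black) and without PBS replicate 3 (orange), where filled points are called at an adjusted p of 0.05. *Mt1*, *Mt2* and *Slc39a10* shift most between the colours, while *Slc39a14*, *Slc39a1* and *Slc30a1* keep nearly the same values.

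Comparing the stimulations directly, 4 of 7 members were called higher in dsHMGB1 than in frHMGB1 (*Mt2*, *Slc39a14*, *Slc39a1* and *Slc30a1*) and 0 lower, against 27.7% and 23.1% of all genes. *Slc39a14* differed by 3.34 (SE 0.18, adjusted p = 1.06e-08), *Slc39a1* by 1.03 (SE 0.11, adjusted p = 8.68e-07) and *Slc30a1* by 0.95 (SE 0.08, adjusted p = 1.48e-06) on the log2 scale. Between dsHMGB1 and LPS, 1 member was higher in dsHMGB1 (*Slc30a1*) and 2 lower (*Mt1* and *Mt2*), against 15.8% and 10.6% of all genes. Between dsHMGB1 and LPS/IFNγ, 2 were higher in dsHMGB1 (*Slc39a14* and *Slc30a1*) and 2 lower (*Mt1* and *Mt2*), against 16.5% and 16.7%. Between LPS/IFNγ and LPS, 1 was higher in LPS/IFNγ (*Slc30a1*) and 1 lower (*Slc39a14*), against 16.3% and 9.36%. Without PBS replicate 3 the calls in this order were 5 higher and 2 lower, 2 and 3, 2 and 3, and 5 and 1, where 36.2% and 33.6%, 25.9% and 23.9%, 28.4% and 25.9%, and 25.5% and 24.9% of all genes were called. *Slc30a1* was called in each of these 4 comparisons, and its direction relative to the metallothioneins was opposite in both comparisons of dsHMGB1 with an LPS condition.

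The levels of the genes can be compared only roughly with each other per kilobase of exon, with the exons of all annotated transcripts merged. For *Mt1* the merged 1246 bases span the whole gene, so the level of *Mt1* per kb may be understated. On that scale *Mt1* was at 3264 ± 3281 normalized counts per kb in PBS and 8773 ± 583 in LPS/IFNγ (SD, n = 3), and *Mt2* at 81.7 ± 81.3 and 2330 ± 29.3. The PBS means of replicates 1 and 2 alone were 1372 for *Mt1* and 34.8 for *Mt2*. Among the 14 ZIP genes tested, *Slc39a1* had the highest mean in all 5 conditions, with 53.7% of the summed ZIP level in PBS (48.7% in replicates 1 and 2) and 47.3% to 64.1% in the stimulations. *Slc39a14* was the tenth of the ZIP genes in PBS at 48.1 ± 12.7 per kb and the third in LPS at 744 ± 62.6. *Slc39a10* was the fifth in PBS at 417 ± 304 and the tenth in LPS at 209 ± 19.4, whereas in PBS replicates 1 and 2 alone it was the fourth, at 591. Of the 6 ZnT genes tested, *Slc30a1* had the highest mean in PBS, frHMGB1, dsHMGB1 and LPS. In LPS its level of 676 ± 31.8 was near the 639 ± 3.33 of *Slc30a4*, a ZnT of intracellular vesicles, and in LPS/IFNγ *Slc30a4* was above it, at 2038 ± 49.7 against 1311 ± 54.2.

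Of the other 11 ZIP genes, all were tested, and 3 were called higher and 1 lower in dsHMGB1, 3 and 1 in LPS and 5 and 3 in LPS/IFNγ, with 0 in frHMGB1. Of all genes 23.3% were called higher and 24.2% lower in dsHMGB1, 26.7% and 36.2% in LPS, 29% and 31.2% in LPS/IFNγ, and 1.31% and 5.69% in frHMGB1. The counts of ZIP genes were, without PBS replicate 3, 3 and 2, 4 and 3, and 5 and 3, with 2 higher and 0 lower in frHMGB1. The shares of all genes were then 30.4% and 29.7%, 33.5% and 38.8%, and 33.9% and 35%, with 8.7% and 9.14% in frHMGB1. The median log2 fold change of the 11 ZIP genes reached 0.41 in LPS/IFNγ, against 0.21 in dsHMGB1 and 0.16 in LPS. *Slc39a8* encodes ZIP8, the nearest relative of ZIP14. Its normalized count was 548, 605 and 356 in PBS and 530.2, 587 and 534 in frHMGB1. It was 598, 656 and 641 in dsHMGB1, 3724, 3273 and 3203 in LPS, and 3955, 4083 and 3921 in LPS/IFNγ. Unlike *Slc39a14*, *Slc39a8* was thus high in both LPS conditions (log2 fold change 2.75, SE 0.16, adjusted p = 2.15e-08 and 2.98, SE 0.16, adjusted p = 8.38e-09) and near PBS in dsHMGB1 (0.32, adjusted p = 0.157). dsHMGB1 was below LPS in *Slc39a8* by -2.43 (SE 0.16, adjusted p = 8.01e-07).

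Among the rest of the ZIP genes, *Slc39a2* stood out for LPS/IFNγ and *Slc39a13* for dsHMGB1. *Slc39a2* was at 22.6, 12.6 and 17.6 in PBS, at 71.1, 41.8 and 64.7 in LPS and at 603, 539 and 546 in LPS/IFNγ, and it rose by a log2 fold change of 1.76 in LPS (SE 0.33, adjusted p = 0.000558) and of 5.00 in LPS/IFNγ (SE 0.30, adjusted p = 2.29e-08). *Slc39a13*, which encodes an importer of the secretory pathway, was at 1294, 1162 and 1451 in PBS, 3425, 3334 and 3606 in dsHMGB1, 1846, 1964 and 1814 in LPS and 1754, 1918 and 2028 in LPS/IFNγ. It was 2.66-fold above PBS in dsHMGB1 (1.41, SE 0.10, adjusted p = 5.12e-08) and higher in dsHMGB1 than in LPS (0.88, SE 0.10, adjusted p = 1.27e-05). In frHMGB1 it was called without PBS replicate 3 alone, at 0.30 (adjusted p = 0.0170). *Slc39a4*, the importer of intestinal zinc uptake, was low, at 41.2 ± 9.12 in PBS, and was called in dsHMGB1 (1.17, adjusted p = 0.00110), and without PBS replicate 3 also in frHMGB1 (0.84, adjusted p = 0.0310). *Slc39a7*, an importer from the endoplasmic reticulum into the cytosol, rose in dsHMGB1 (1.04, adjusted p = 0.0182) and LPS/IFNγ (0.88, adjusted p = 0.0358), and without PBS replicate 3 also in LPS (0.44, adjusted p = 0.0151). *Slc39a5* was called lower in LPS/IFNγ (-2.69, adjusted p = 0.0104), but in PBS its 3 libraries ran from 13.9 to 152, and without PBS replicate 3 the value was -0.80 (adjusted p = 0.137). The gene called lower in dsHMGB1 and in LPS was *Slc39a11*, named after its values were seen, at -0.26 (adjusted p = 0.0219) and -0.63 (adjusted p = 1.32e-05).

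Of the other 9 ZnT genes, 5 were tested, and 3 were called higher and 1 lower in each of dsHMGB1, LPS and LPS/IFNγ (4 and 1 without PBS replicate 3). In these conditions 23.3%, 26.7% and 29% of all genes were called higher and 24.2%, 36.2% and 31.2% lower. Without PBS replicate 3 these shares were 30.4%, 33.5% and 33.9% higher and 29.7%, 38.8% and 35% lower. *Slc30a8* and *Slc30a10* had 0 counts in every library. *Slc30a4* was at 760.3, 896 and 307 in PBS and 685, 629.5 and 741 in frHMGB1. It was 2120.1, 2865 and 2021 in dsHMGB1, 3493, 3526 and 3495 in LPS, and 11371, 11284 and 10861 in LPS/IFNγ. The rise was 3.56-fold in dsHMGB1 (1.83, SE 0.29, adjusted p = 0.000218), 5.34-fold in LPS (2.42, adjusted p = 1.59e-05) and 17.03-fold in LPS/IFNγ (4.09, adjusted p = 1.27e-07). *Slc30a6* and *Slc30a7*, ZnT proteins of the Golgi and early secretory pathway, rose in the same 3 conditions, by 1.27, 1.64 and 1.04 for *Slc30a6* and 1.24, 1.68 and 1.94 for *Slc30a7*. *Slc30a5*, whose product works as a complex with that of *Slc30a6*, fell, with -0.43 (adjusted p = 0.0149), -0.65 (adjusted p = 0.000465) and -0.68 (adjusted p = 0.000489). In LPS, where *Slc30a1* and *Slc30a5* fell, *Slc30a4*, *Slc30a6* and *Slc30a7* rose.

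**Figure D5:**
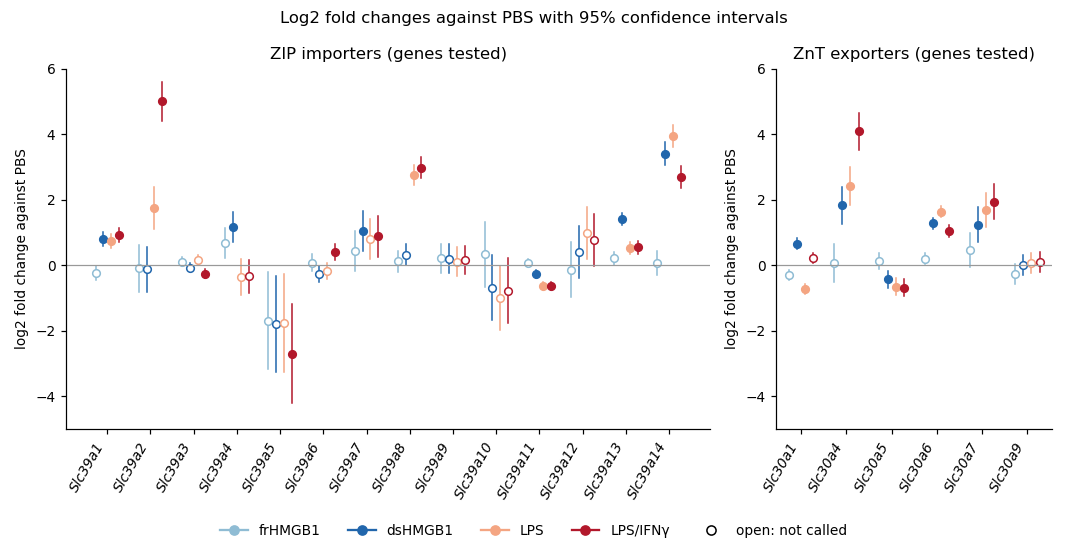
Log2 fold changes against PBS (y axis) with 95% confidence intervals for the 14 ZIP genes and 6 ZnT genes tested, coloured by stimulation, with filled points for genes called at an adjusted p of 0.05. *Slc39a14* rises in dsHMGB1, LPS and LPS/IFNγ, *Slc39a8* in LPS and LPS/IFNγ, *Slc39a2* most in LPS/IFNγ, and *Slc30a4* reaches 4.09 in LPS/IFNγ.

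The other metallothioneins, *Mt3* and *Mt4*, were too low to test, with 42 and 3 counts over all libraries. Of 4 further genes known as MTF1 targets, 1 was called higher and 1 lower in dsHMGB1, 2 and 0 in LPS and 2 and 1 in LPS/IFNγ (3 and 1, 2 and 1, and 3 and 1 without PBS replicate 3). The shares of all genes were 23.3% and 24.2%, 26.7% and 36.2%, and 29% and 31.2% (30.4% and 29.7%, 33.5% and 38.8%, and 33.9% and 35% without that library). *Csrp1*, a LIM protein of the cytoskeleton, rose in dsHMGB1 (1.17, SE 0.13, adjusted p = 7.69e-07), LPS (1.95, SE 0.13, adjusted p = 3.87e-09) and LPS/IFNγ (2.69, SE 0.13, adjusted p = 1.46e-10), in the same order of conditions as *Mt2*. *Ndrg1*, a stress-responsive gene, fell in dsHMGB1 (-1.02, adjusted p = 8.71e-06) and rose in LPS/IFNγ (0.92, adjusted p = 1.81e-05), and in frHMGB1 it was lower when PBS replicate 3 was left out (-0.38, adjusted p = 0.0125). *Gclc*, of glutathione synthesis, fell in LPS/IFNγ (-1.04, adjusted p = 0.0181). Leaving out PBS replicate 3, *Gclc* was called in LPS as well (-0.81, adjusted p = 1.85e-08), and higher in dsHMGB1 (0.24, adjusted p = 0.0279). *Selenow*, which encodes a small selenoprotein, was at 846, 757 and 3581 in PBS, so that one library decides its PBS mean. It rose in LPS by 1.10 with all libraries (adjusted p = 0.0353) and by 2.20 without PBS replicate 3 (adjusted p = 7.19e-12), when it was also called higher in dsHMGB1 (1.58, adjusted p = 8.98e-10), LPS/IFNγ (0.91, adjusted p = 1.51e-06) and frHMGB1 (0.34, adjusted p = 0.0415). The 4 did not move one way. *S100a8*, a subunit of the zinc-binding protein calprotectin, was at 92.5, 88.9 and 292 in PBS and was called in LPS (0.98, adjusted p = 0.0438), where it overlapped PBS replicate 3 and no other PBS library. Without that library it was called higher in LPS (1.76, adjusted p = 7.77e-06), dsHMGB1 (0.83, adjusted p = 0.00963) and LPS/IFNγ (0.77, adjusted p = 0.0166). Its partner *S100a9* had 0 counts in every library.

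Copper shares the metallothioneins as a binder, and 8 of 10 copper genes were tested. In dsHMGB1 3 were called higher and 1 lower, in LPS 3 and 1, in LPS/IFNγ 4 and 3, and in frHMGB1 1 and 0. Of all genes 23.3% and 24.2%, 26.7% and 36.2%, 29% and 31.2%, and 1.31% and 5.69% were. Leaving out PBS replicate 3, the copper genes called were 4 and 0, 5 and 0, 5 and 1, and 2 and 0. The shares of all genes were then 30.4% and 29.7%, 33.5% and 38.8%, 33.9% and 35%, and 8.7% and 9.14%. The importer *Slc31a1* rose from 3633 ± 575 normalized counts in PBS to 14468 ± 309 with dsHMGB1, 12555 ± 134 with LPS and 14586 ± 160 with LPS/IFNγ (SD, n = 3; log2 fold changes 1.99, 1.79 and 2.00). *Slc31a2*, which acts on copper in endosomes, rose from 3481 ± 210 to 24552 ± 701, 23489 ± 524 and 20302 ± 494 (2.82, 2.75 and 2.54). It was also the copper gene called in frHMGB1, at 5552 ± 129.9 (0.67, SE 0.06, adjusted p = 0.000169), with no overlap with PBS, and *Atox1* was called there too without PBS replicate 3 (0.42, adjusted p = 0.0132). *Sco1*, a copper chaperone of cytochrome c oxidase, rose by 1.53, 2.34 and 3.43. *Ccs*, *Atox1* and *Commd1* were the 3 called lower in LPS/IFNγ (-1.36, -1.29 and -1.23), and without PBS replicate 3 *Ccs* was at -0.57 (adjusted p = 0.000183), while *Atox1* (-0.08) and *Commd1* (-0.14) lost the call. In LPS *Atox1* was then called higher (0.44, adjusted p = 0.00370).

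Likeness of pattern was described by Pearson's r of log2(normalized count + 1) over the 15 libraries, which share conditions and one pool, among 10095 protein-coding genes. PBS replicate 3 is included, which differed from the other PBS libraries by 2.37 in *Mt1*, -3.09 in *Slc39a10* and 0.03 in *Slc30a1* on the log2 scale. How far each r rests on that library was not tested. The 3 genes most like *Mt2* were *Caml*, *Bfar* and *Zc3h15* (r of 0.994, 0.993 and 0.993), those most like *Slc39a14* included *Agtrap* and *Trim21* (0.997 and 0.995), and those most like *Mt1* were *2010111I01Rik*, *Batf3* and *Safb* (0.975, 0.974 and 0.969). For *Mtf1* they were *Kif1b*, *Ccdc186* and *Avl9* (0.993, 0.989 and 0.988), for *Slc39a1* *Gtpbp4*, *Leprotl1* and *Tapbp* (0.993, 0.988 and 0.987), and for *Slc39a10* *Nhlrc3*, *Fam168b* and *Galnt1* (0.986, 0.985 and 0.981). *Slc30a1* had no gene near it to that degree, its highest values being 0.861 for *Foxn3*, 0.859 for *Aldoart1* and 0.857 for *mt-Atp6*. Between members, *Mt2* was nearest to *Slc39a1* (0.914) and *Slc39a14* (0.815), and its r with *Mt1* was 0.738. The r of *Slc30a1* with the other members lay between -0.26 and 0.30.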

How the data were processed

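RNA was sequenced from 15 samples of BMDMs, 3 per condition. The authors prepared stranded, paired-end mRNA libraries, and the submitters' processing notes name CASAVA, STAR, DESeq2 and GRCm38. The deposited table holds whole-number counts of reads per gene, without normalization or filter, and its counting program is not given in the sources used here. The authors compared conditions with DESeq2 by a fold change cut-off without a p, because replicates were technical. GENCODE M21 held 51661 of the 51763 identifiers and lacked 102. The table had 0 columns without a sample.

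Genes were kept by filterByExpr of edgeR 4.0.16 (16919 genes), and called at an adjusted p under 0.05 in its quasi-likelihood F test, in one model of all 15 libraries with TMM factors and Benjamini-Hochberg adjustment over all genes tested. Normalized counts, unshrunken log2 fold changes and SE come from DESeq2 1.42.0 in R 4.3.3. The scripts were tested on simulated counts. Samples were grouped by their labels. Same-numbered replicates were not paired: of 30 pairs, 1 had deviations correlated above 0.1 (range -0.386 to 0.375). No replicates were near enough to be copies (chi-square per degree of freedom of at least 4.31).

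The members and gene lists were chosen with earlier results of these data known. Genes named were the members, at most 6 called genes per list with the largest fold change against PBS, markers, and the 3 protein-coding genes with at least 100 normalized counts most correlated with each member. A gene that this rule names and a marker are not reported here. Promoter sequences are from RefSeq (GRCm38.p6), where 6 of the 7 members matched. Intervals of shares cover counting error only, since reads amplified from one molecule are not independent. Alternatives were RLE, upper-quartile and library-size scaling, DESeq2's Wald test, no filter, 1 CPM in 3 libraries, protein-coding genes alone, the compared groups alone, a replicate block, a test against a fold change of 1.5, and each library left out in turn.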

Additional observations from a re-analysis of the deposited data

How the results depend on the processing

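Between PBS and frHMGB1, the 0 called members became 1 with DESeq2's Wald test, upper-quartile scaling or the filter of 1 CPM. Of all genes these settings called 10.4%, 7.0% and 5.6%. With both groups fitted alone, 3 members were called in dsHMGB1 against PBS, 5 in dsHMGB1 against LPS and 7 in LPS/IFNγ against LPS. With all libraries in one fit, 5, 3 and 2 were called. The share of all genes called went from 47.4% to 28.3%, from 26.4% to 42.3% and from 25.7% to 54.6%. Fitted alone, 14 of 29 other zinc and metal genes were called in at least 1 of the 4 comparisons with PBS, in place of 25. The other genes are counted in this way below too, and the share of all genes by this count was not computed. Against a fold change of 1.5 the test called 3 members in dsHMGB1 and 3 in LPS against PBS, 2 in dsHMGB1 against LPS/IFNγ, 3 in frHMGB1 against LPS, and 15 of the other genes. Of all genes it called 27.12% in dsHMGB1 and 44.97% in LPS against PBS, and 36.54% in frHMGB1 against LPS. In dsHMGB1 against LPS/IFNγ it called 6.22% of all genes higher and 7.78% lower. With library size alone, values turned to -0.13 for *Mt1* and -0.088 for *Mtf1* in LPS, and to -0.46 for *Slc30a1* in LPS/IFNγ (-0.087 with upper-quartile scaling), all against PBS. In LPS/IFNγ against PBS library size alone called 3 members higher and 2 lower in place of 5 and 0 (all genes 17.6% and 51.9%). *Mt1* (0.87) and *Mtf1* (0.26) were no longer called, and *Slc39a10* (-1.55) and *Slc30a1* (-0.46) were called lower. For *Mtf1*, values also turned to -0.13 in dsHMGB1 against frHMGB1, 0.11 in dsHMGB1 against LPS and 0.24 in frHMGB1 against LPS. *Slc39a1* turned to 0.21 in dsHMGB1 against LPS/IFNγ and *Slc30a1* to 0.21 in frHMGB1 against LPS/IFNγ. Library-size scaling moved the median of all genes by -0.37, -0.70 and -0.69 and upper-quartile scaling by -0.24, -0.35 and -0.31 in the comparisons of dsHMGB1, LPS and LPS/IFNγ with PBS. With protein-coding genes alone, *Slc39a14* in frHMGB1 against PBS was at -0.003352. Leaving out 1 library at a time gave 0 to 2 called members in frHMGB1, 4 to 6 in dsHMGB1, 4 to 7 in LPS and 4 to 6 in LPS/IFNγ against PBS. The share of all genes called ran, in this order, from 4.95% to 17.84%, 39.84% to 60.03%, 56.62% to 72.29% and 54.42% to 68.96%. Leaving out 1 library gave 4 to 7 called members in dsHMGB1 against frHMGB1, 2 to 5 in dsHMGB1 against LPS and 2 to 6 in LPS/IFNγ against LPS. There the share of all genes ran from 43.96% to 69.82%, 20.3% to 49.79% and 19.93% to 50.39%. In frHMGB1 against PBS the values then ran from -1.16 to 0.47 for *Mt1*, from -1.47 to 0.12 for *Mt2*, from -0.083 to 0.31 for *Mtf1*, from -0.13 to 0.20 for *Slc39a14* and from -0.16 to 0.76 for *Slc39a10*, whose value in dsHMGB1 against LPS/IFNγ ran from -0.078 to 0.22. The replicate block called 4 members in dsHMGB1 against PBS, where *Mt1* was lost (-1.08, adjusted p = 0.0802), and 23 of the other genes. Of all genes it called 45.0% in that comparison. It changed no other member's call. Since the replicates came from one pool, no setting measures the spread between mice.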
